A study of Mus musculus with 26 samples.

Results

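Cd36, Msr1 and Lpl are genes through which macrophages take up lipid, and the sites described here are the positions in these genes that were listed as edited from C to U in mouse bone marrow-derived macrophages. Members were chosen by gene symbol, as every entry of the bulk list and of the single-cell list that carried one of these 3 symbols. They came to 8 of 410 bulk sites and 10 of 171 single-cell sites, which lay at 17 of the 526 distinct positions of both lists. Cd36 held 10 of the 17 positions, Lpl 5 and Msr1 2. All mice were C57BL/6J, and bone marrow cells were grown into macrophages with M-CSF at 20 ng/ml and harvested 7 to 9 days after isolation. The bulk list rested on 1 library of wild-type macrophages, made from 500000 to 1000000 cells, and 1 library of Apobec1 -/- macrophages, which lack the deaminase in every cell and entered only as the control that removed C-to-T changes of other origin. The single-cell list rested on 24 wild-type macrophages of 1 mouse, each a library of its own. The lists hold edited positions and no expression levels, so the cell type could not be checked by marker levels. Of 13 macrophage markers 2 had a bulk site and 3 a single-cell site, and the markers searched for T cells, B cells, neutrophils, dendritic cells, fibroblasts or adipocytes, and erythroid cells had none. Only 3 to 5 genes were searched for each of these other types, and an edited site does not measure cell type.

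APOBEC1 is a cytidine deaminase that turns C into U in messenger RNA. It is best known for creating a stop codon in Apob mRNA in the small intestine, where an AU-rich stretch just 3′ of the edited base, the mooring element, holds the editing complex in place. In macrophages most of its targets lie in 3′ UTRs, where a change of base leaves the protein as it is. CD36 is a scavenger receptor that binds oxidised low-density lipoprotein and long-chain fatty acids. MSR1, scavenger receptor A, binds modified low-density lipoprotein. Lipoprotein lipase, the product of Lpl, is secreted by macrophages and releases fatty acids from the triglycerides of lipoproteins.

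The edited positions fell at different places along the 3 mRNAs. On the GRCm38 reference with GENCODE vM21 (the build of the lists is mm10, the same assembly), all 10 Cd36 positions lay on chromosome 5 in exon 15 of the transcript with the longest 3′ UTR, 1660 nt, between 87 and 1236 nt 3′ of the stop codon. A site is named below by that distance, so that Cd36 +213 (position 17783137) lies 213 nt 3′ of the stop codon. Cd36 +1189 (17782161) and +1236 (17782114) lay in 2 of 6 coding transcripts, those with the longest 3′ UTRs, and the other 8 positions in 5 of 6. Both Msr1 positions lay on chromosome 8 in exon 9 of the full-length coding transcript that encodes the shorter form of the receptor. They lay 733 nt (39605239) and 2463 nt (39603509) 3′ of its stop codon. The deposited list labels them as 3′ UTR of a noncoding RNA, as it does 3 of the 410 bulk sites. In GENCODE they belong to the 2518-nt 3′ UTR of the shorter receptor, with 354 codons, and lie outside the exons of the longer form, which has 458. The shorter receptor lacks the cysteine-rich domain at the C terminus, and so reads over these positions report on its mRNA, or on RNA not yet spliced, and not on the mature mRNA of the longer form. Of the Lpl positions, 4 lay on chromosome 8 in exon 10, the last, of the coding mRNA, 1451 nt (68905957), 1625 nt (68906131), 2123 nt (68906629) and 2146 nt (68906652) 3′ of the stop codon in a 3′ UTR of 2428 nt. The remaining Lpl position, 68883890, lay in the intron after exon 1 and is exonic only in a transcript that retains it. It was 1 of 5 intronic sites among the 410.

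**Figure D1:**
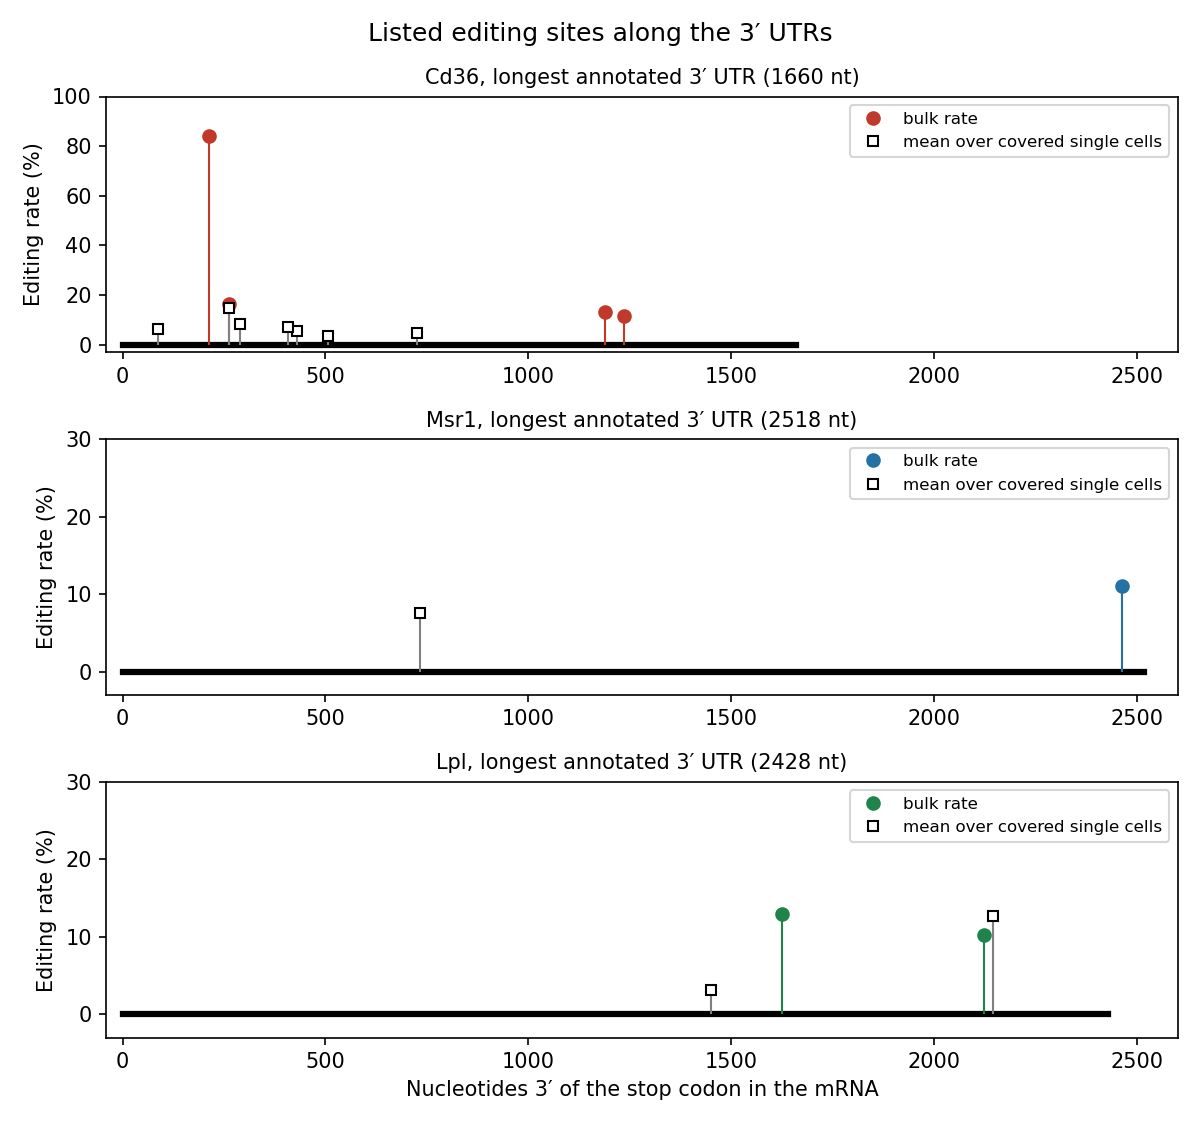
Listed sites along the 3′ UTRs, as editing rate in percent (y axis, to 100% for Cd36 and to 30% for Msr1 and Lpl) against nucleotides 3′ of the stop codon (x axis). Filled circles are rates in the bulk wild-type library, open squares are means over covered single cells, and the black bar is the 3′ UTR; the circle of Cd36 +213 stands at 84.1%, and both symbols coincide in place only at Cd36 +263.

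The sequences around the sites that the results below turn on are printed 5′ to 3′ on the strand of the gene, with the edited C in capitals at base 11 of 30. They come from the RefSeq GRCm38 sequence. The first 3 are neighbouring Cd36 sites, +213 and +263 because they differed in bulk and +263 and +290 because their highest rates fell in different cells, the next is the Msr1 position seen in single cells, and the last 2 are the Lpl neighbours of which each list held a different one.
Cd36 +213, chr5:17783118-17783147, minus strand: cagcatatttCaaaagattaatatgtcact
Cd36 +263, chr5:17783068-17783097, minus strand: aaatcttgcaCttttattaaaagtccatca
Cd36 +290, chr5:17783041-17783070, minus strand: tcatttgcaaCtgagtggacttcaatttct
Msr1 +733, chr8:39605220-39605249, minus strand: gcttgtttcaCtttgctaccttcttattcc
Lpl +2123, chr8:68906619-68906648, plus strand: taattcattaCagtatatacacatccatgc
Lpl +2146, chr8:68906642-68906671, plus strand: tccatgcataCatatgtcaatgatgcttta

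The base 5′ of the edited C was A at 15 of the 17 positions (88.2%), against 447 of the 526 listed positions (85.0%) and 25.4% of 47933 other C within 250 nt of a listed site. The exceptions were Cd36 +213 and +726 (17782624), where it was T. All 17 had A or T there, against 96.6% of listed positions and 56.5% of other C. The other C were counted around each listed site in turn, leaving out only that site. Neighbouring listed sites are thus among them, and a C near several listed sites was counted more than once. A search for the mooring element TGATCAGTA, on the gene's strand, starting after a spacer of 2 to 8 bases and with at least 6 of 9 bases alike, found it at 3 of 17 positions (17.6%), which were Cd36 +213, Cd36 +1189 and the intronic Lpl site. The share was 12.0% of all listed positions (63 of 526) and 8.26% of other C. A full match to the degenerate mooring consensus of APOBEC1 targets, a pattern chosen after the data were seen, was present at 1 of the 17, Cd36 +213, and at 13 of 526 listed positions (2.47%), against 0.0981% of other C. The bulk rates at those 13 sites ran between 5.88% and 88.9% with a median of 18.4%, and the median was 11.8% over the other 397 bulk sites. All 3 bulk sites above 50% were among the 13. These counts describe letters in the genome, and binding was not measured.

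In bulk macrophages Cd36 carried one of the highest editing rates of the list. At Cd36 +213, 58 of 69 reads were edited, an editing rate of 84.1% (exact Clopper-Pearson 95% interval 73.3% to 91.8%). This ranked 2 of 410, between Prkacb, which encodes a subunit of protein kinase A, at 88.9% of 18 reads and Serinc1 at 83.9% of 62 reads. No other site of the list exceeded 50%, and the next, in the Golgi mannosidase gene Man2a1, stood at 41.7%. With 1 library per genotype there are no bulk replicates, and the intervals leave out variation between cultures. They treat each read as a separate count. Because these reads carry no molecular identifiers and several can stem from 1 molecule, the intervals can be too narrow even for counting error. A rate over a whole culture also does not show how the edited reads were shared among its cells.

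The other 3 Cd36 sites of the bulk list were edited far less. Cd36 +263 had 12 edited of 74 reads, or 16.2% (8.67% to 26.6%). Cd36 +1189 had 4 of 30 reads, or 13.3% (3.76% to 30.7%). Cd36 +1236 had 3 of 26 reads, or 11.5% (2.45% to 30.2%). The intervals of these 3 sites overlapped each other, and the interval of Cd36 +213 lay above all of them.

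The neighbours Cd36 +213 and +263, 50 nt apart in the same exon, differed by 67.8 percentage points, with an adjusted p of 8.93e-15 (Fisher's exact test, two-sided, Benjamini-Hochberg over all 135 pairs of neighbouring bulk sites in a gene). A read of 100 nt can cover both positions, and so the reads behind them are not separate samples of the mRNA. Set against Cd36 +1189, which is 976 nt away and shares no read with it, the rate of Cd36 +213 was again higher, at 84.1% against 13.3% (adjusted p = 1.10e-09 by the same test over 104 pairs more than 100 nt apart, a comparison added after the data were seen). Of the 5 neighbouring pairs in Cd36 and Lpl, Cd36 +213 and +263 were the 1 called, against 5 of 135 pairs (3.70%) over the whole list. In the other 4 the adjusted p was 1, with differences of -2.70 to 2.88 points. The test compares positions within this library.

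Msr1 and Lpl had low bulk rates, close to the median of the list or below it. Msr1 +2463, in the 3′ UTR of the shorter receptor, had 2 edited of 18 reads, or 11.1% (1.38% to 34.7%). Lpl +1625 had 12 of 93 reads, or 12.9% (6.85% to 21.5%). Lpl +2123 had 10 of 98 reads, or 10.2% (5.00% to 18.0%), and ranked 342 in rate and 4 in depth among the 410 sites. The intronic Lpl site had 2 of 19 reads, or 10.5% (1.30% to 33.1%).

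Apart from Cd36 +213, the member sites lay between 10.2% and 16.2% with a median of 11.5%, and the median of all 410 sites was 11.8%. In all, 319 of the 410 sites (77.8%) had rates between 10% and 17%. The list was filtered on how far base counts of the wild-type library departed from those of the Apobec1 -/- library. A minimum of edited reads was also set. The paper equates its base-count thresholds roughly with an editing rate of 10%, and the 7 lower member rates and the list median lie near that floor. The list therefore does not show how many positions were edited more weakly. Member sites were covered by 18 to 98 reads (median 49.5), against 17 to 108 (median 30) for the 402 sites of other genes. The order of rates below Cd36 +213 is not resolved at this depth, since all 7 intervals overlap.

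**Figure D2:**
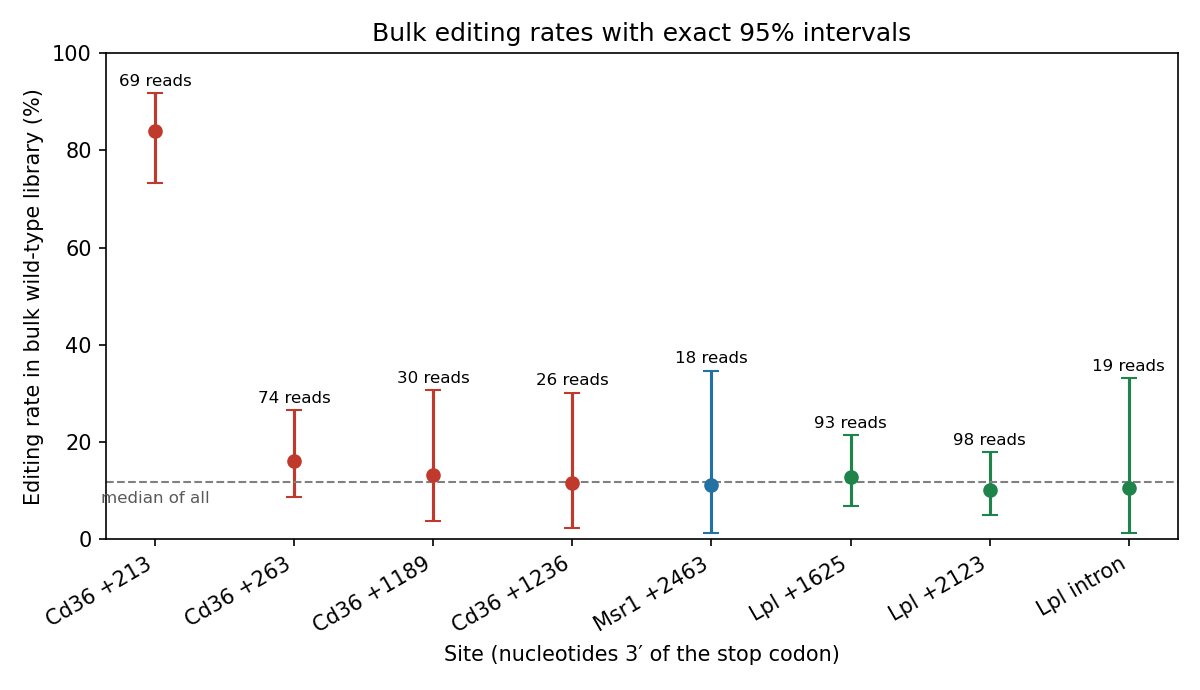
Editing rate in percent (y axis) of the 8 member sites in the bulk wild-type library, by distance from the stop codon (x axis). Points are rates, bars are exact 95% intervals from the reads printed above them, and the dashed line is the median of all 410 sites, 11.8%; the bar of Cd36 +213 lies above all others, and the other 7 cross the line.

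**Figure D3:**
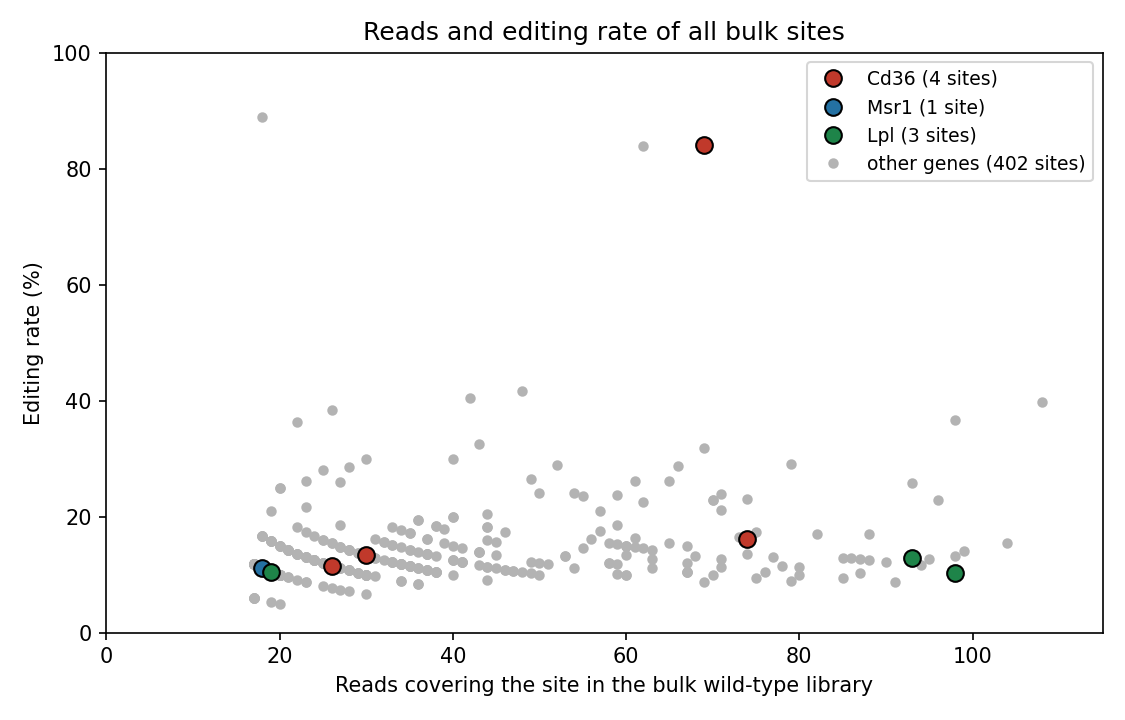
Editing rate in percent (y axis) against reads covering the site (x axis) for all 410 bulk sites, with Cd36, Msr1 and Lpl in colour and other genes in grey. Cd36 +213 at 84.1% of 69 reads stands with 2 grey points above 80%, and the other 7 coloured points lie in the dense band near the bottom.

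The single-cell list shared 1 member position with the bulk list. Of the 8 bulk sites 1 was also a single-cell site, Cd36 +263, against 55 of 410 (13.4%) over the whole bulk list, and this was 1 of the 10 member sites in the single-cell list, against 55 of 171 (32.2%). Cd36 had 7 single-cell sites, and 3 genes had more. The other Cd36 sites were +87 (17783263), +290 (17783060), +407 (17782943), +429 (17782921), +506 (17782844) and +726 (17782624), and all 7 spanned 639 nt. Single-cell sites of Msr1 and Lpl were Msr1 +733, Lpl +1451 and Lpl +2146. The last lay 23 nt from the bulk site Lpl +2123. Why a position was in one list and not in the other was not tested. A site had to be edited in at least 3 of the 24 cells to be listed, and any further filter on that list was not stated.

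The strongly edited Cd36 +213 was not among the single-cell sites, although +263, 50 nt away, was covered in 15 cells and +87, 126 nt away, in 20. The other 2 bulk sites above 50%, in Prkacb and Serinc1, were not among them either. Of the 11 bulk sites above 30%, 3 were. Of the 44 bulk sites with at least 69 reads, 24 were. The rate of Cd36 +213 in single cells is therefore not known from these lists.

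The single-cell values are fractions of reads per cell with no read counts, so the depth behind a value is unknown, and high rates can rest on few reads. Cells are called by their column in the deposited list, 1 to 24, which carries no cell names. A covered cell has a value, which may be 0, and an edited cell has a value above 0.

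Over covered cells Cd36 +263 had the largest SD and the highest mean of the 10 sites. It was covered in 15 cells and edited in 5, at 10.0% in cell 10, 12.5% in cell 13, 50% in cell 14, 60.0% in cell 18 and 90.0% in cell 22. The other 10 covered cells were at 0. The mean over covered cells was 14.8% ± 28.2 (SD, n = 15 cells), the median was 0, and the bulk rate of the same position was 16.2%. The ratio of mean to bulk rate was 0.915, and its median over the 55 sites in both lists was 0.583. The SD ranked 5 of 171 single-cell sites. Its first place in the mean depends on the summary. Leaving out cell 22 lowered it to 9.46%, below the 10.6% of Lpl +2146 without its highest cell, and with uncovered cells counted as 0 it was 9.27%, below 12.7% at Lpl +2146.

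Its neighbour Cd36 +290, 27 nt away, was covered in the same 15 cells and was edited in a different set. It reached 83.3% in cell 23, where +263 was at 0, and was at 0 in cell 22, where +263 stood at 90.0%. It was edited at 19.0% in cell 3, 14.3% in cell 9 and 8.33% in cell 18, the last being the single cell edited at both positions. The mean was 8.33% ± 21.6 (SD, n = 15), and 2.98% without cell 23.

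Cd36 +407 and +429, 22 nt apart, shared no edited cell among 16 covered at both. Each was edited in 3 of those 16, so the lack of a shared cell does not show that they exclude each other. Cd36 +407 was edited at 47.4% in cell 9, 25% in cell 21 and 50% in cell 23, with a mean of 7.20% ± 16.7 (SD, n = 17). Cd36 +429 was edited at 25% in cell 3, 17.9% in cell 10 and 60.0% in cell 13, with a mean of 5.71% ± 15.3 (SD, n = 18). Both were at 0 in most of the cells that covered them.

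The outer Cd36 sites had more cells with coverage. Cd36 +87, nearest to the stop codon, was edited in 4 of 20 covered cells, at 63.0% in cell 5, 30% in cell 6, 3.45% in cell 18 and 32.7% in cell 22 (mean 6.45% ± 16.4, SD). Cd36 +506 was edited in 4 of 19 cells, at 22.2% in cell 3, 16.7% in cell 10, 20.0% in cell 14 and 5.88% in cell 19 (mean 3.41% ± 7.40, SD), and so had no cell above 22.2%. Cd36 +726 was edited in 3 of 23 cells, at 57.1% in cell 5, 23.3% in cell 9 and 28% in cell 22 (mean 4.72% ± 13.6, SD).

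Msr1 +733 was edited in 3 of 17 covered cells. It stood at 75.0% in cell 2, 20.0% in cell 5 and 33.3% in cell 6, with a mean of 7.55% ± 19.6 (SD, n = 17) and 3.33% without cell 2. Cell 2 was at 0 or uncovered at every Cd36 site.

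Lpl +2146 was the member site edited in most cells. All 24 cells were covered and 14 were edited, and the rate was lowest at 0, 8.01% at the median and 61.1% at the highest, in cell 5. Cell 1 stood at 56.3%, and the third highest, cell 7, at 27.3%. The mean was 12.7% ± 16.9 (SD, n = 24). This was the 1 of 10 member sites edited in at least 12 cells, against 32 of 171 (18.7%) over the whole list, and the 1 whose median over cells was above 0. Lpl +1451 was edited in 3 of 21 covered cells, at 25% in cell 3, 28.6% in cell 14 and 12.1% in cell 16 (mean 3.13% ± 8.31, SD).

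**Figure D4:**
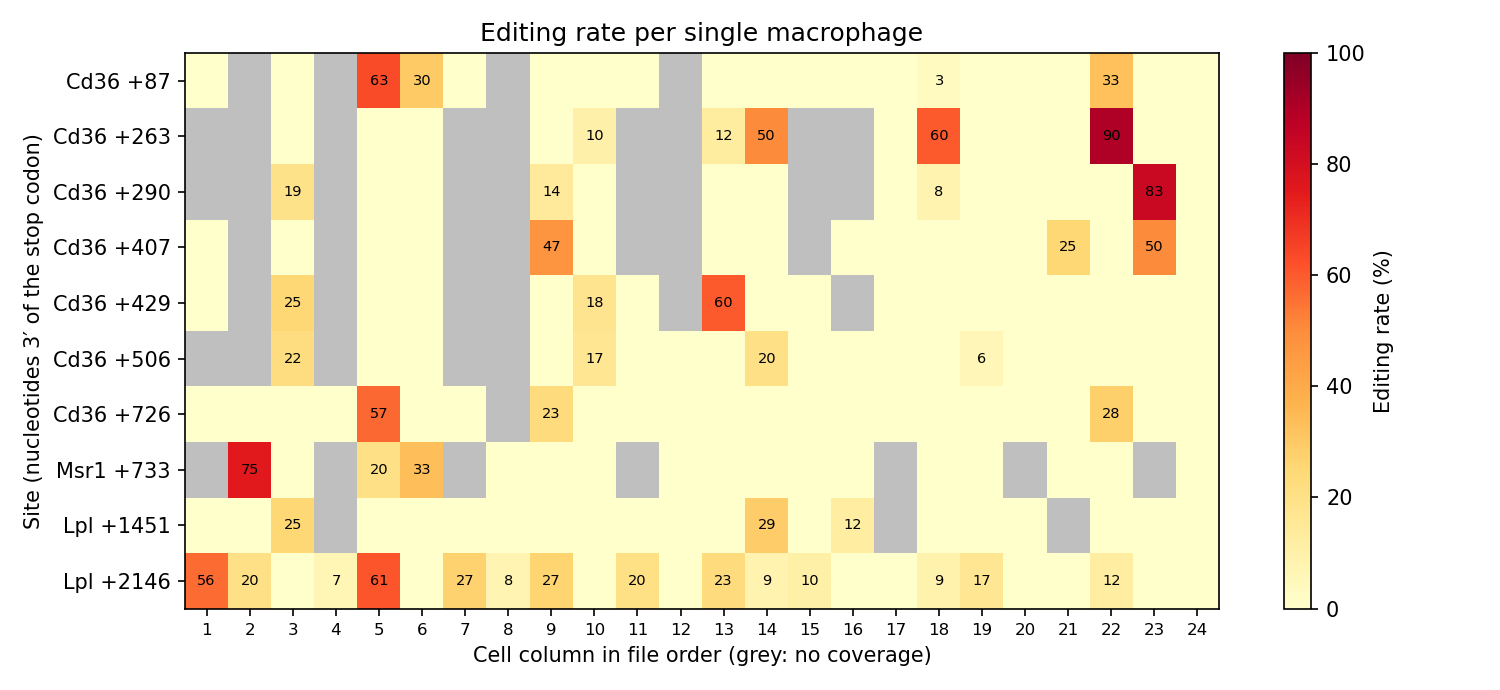
Editing rate in percent (colour, with the value printed where above 0) of the 10 member sites (rows, by gene and distance from the stop codon) in the 24 single macrophages (cell columns, in file order); grey marks no coverage. Lpl +2146 is filled in all 24 columns and edited in 14. The 7 Cd36 rows are edited in 3 to 5 cells each, and no 2 of these rows share more than 2 edited cells.

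Over the 10 sites 46 of 189 covered values were above 0 (24.3%), against 1237 of 3419 (36.2%) at the 161 sites of other genes. A value of 0 in a covered cell beside a value above 50% in another was found at 7 of the 10 sites, against 86 of 171 (50.3%) over the whole list. The medians over sites lay close together, with a mean rate of 6.83% against 7.22% for other genes and an SD of 16.6 against 14.2 points. Member sites were edited in a median of 3.5 cells, against 6 for other genes, and were covered in a median of 18.5 cells, against 23. Without the cell column of its highest value, the mean of a site fell by over 1.5 times at 8 of the 10 sites. The exceptions were Cd36 +506 and Lpl +2146. This was not counted over the sites of other genes. With a median of 3.5 edited cells per member site, 1 cell weighs heavily in a mean.

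**Figure D5:**
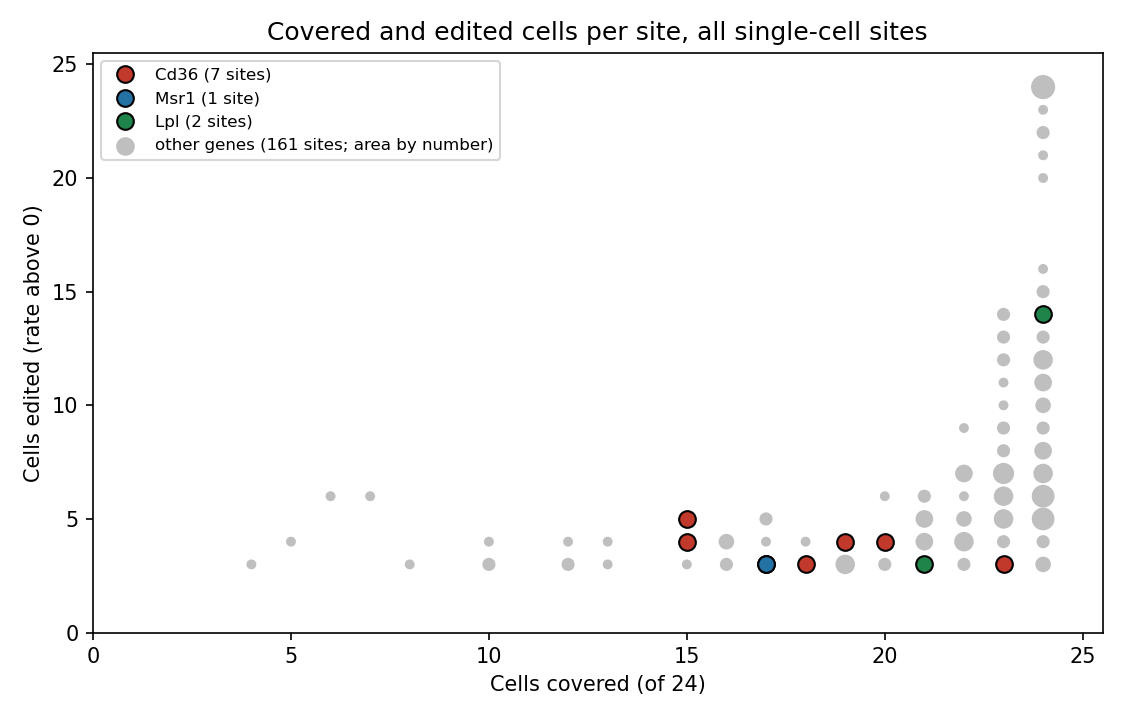
Number of cells edited (y axis) against number of cells covered (x axis, of 24) for all 171 single-cell sites, with Cd36, Msr1 and Lpl in colour and other genes in grey, the grey area growing with the number of sites at a point. Points that coincide hide each other; Cd36 sites lie at 15 to 23 covered cells and 3 to 5 edited cells, and Lpl +2146 at 24 and 14.

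Coverage of Cd36 divided the cells, and that of Lpl +2146 did not. In 15 cells all 7 Cd36 sites were covered, in 8 cells 1 to 4 of them, and in cell 8 none. The 161 sites of other genes were covered about as well in both sets, at 83.2% to 95.7% (median 88.8%) of sites in the 15 cells and at 80.1% to 95.7% (median 88.8%) in the other 9. All 12 cells edited at any Cd36 site were among the 15, and 3 of the 15, cells 17, 20 and 24, were at 0 at all 7. Lpl +2146 was covered in every cell, 8 included. A position without reads can mean that the cell held no such mRNA or that it was not captured, which cannot be told apart here, and the reads per cell are not known.

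Within Cd36 no cell was edited at more than 3 of the 7 sites. Of the 12 edited cells, 3 were edited at 1 site, 4 at 2 and 5 at 3. Of the 21 pairs of Cd36 sites, 8 had no cell edited at both, 7 had 1 and 6 had 2, over 15 to 20 cells covered at both. Each site was edited in only 3 to 5 cells, and pairs in other genes were not counted, so these counts have no background. Spearman's rho had a median of 0.00 over the 21 pairs, between -0.34 and 0.59, and Pearson's r a median of -0.11, between -0.26 and 0.84. The highest was the pair +87 and +726, 639 nt apart (rho = 0.59, r = 0.84 over 20 cells), both edited in cells 5 and 22. Of the 4 pairs within 100 nt, +429 and +506 had a rho of 0.47 and the others lay between -0.27 and -0.13. Sites of a gene share library and, when close, reads, and each rho rests on 2 or fewer cells edited at both.

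Cells edited in Cd36 and in Lpl overlapped in part, and coverage of Cd36 enters these counts. Of the 24 cells, 8 were edited at a site of both genes, 4 in Cd36 and not Lpl, 8 in Lpl and not Cd36, and 4 in neither. All 8 cells edited in Lpl and not Cd36 had at most 4 of the 7 Cd36 sites covered, and cell 8 had none. Among the 15 cells covered at all 7 Cd36 sites, 8 were edited in both genes, 4 in Cd36 and not Lpl, 0 in Lpl and not Cd36, and 3 in neither. The 4 of all 24 cells that were edited in neither gene, cells 12, 17, 20 and 24, were also unedited or uncovered at Msr1. Cell 5 was edited in all 3 genes, at 63.0% and 57.1% at 2 Cd36 sites, 20.0% at Msr1 +733 and 61.1% at Lpl +2146. The 2 Lpl sites shared 1 edited cell of 21 covered at both (rho = -0.31, r = -0.24).

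The sites of other genes whose rates over cells were most like those of a member were found for the best covered site of each gene, as the 3 highest values of Spearman's rho, and are given as a description. For Cd36 +726 they were in App, the amyloid precursor (rho = 0.67, 22 cells), Cybb, the catalytic subunit of the phagocyte NADPH oxidase (0.66, 22 cells), and the splicing factor gene Mbnl1 (0.47, 23 cells), among 101 sites, and all 3 rest on the 3 cells edited at +726. For Msr1 +733 they were in Msn, which encodes the cytoskeletal linker moesin (0.49, 17 cells), Cd93 (0.41, 17 cells) and the choline transporter gene Slc44a1 (0.32, 15 cells), among 99. For Lpl +2146 they were in the endoplasmic reticulum protein gene Rtn4 (0.49, 24 cells), in Msn (0.45, 24 cells) and in Atp6ap1, an accessory subunit of the proton pump (0.44, 24 cells), among 101. The position in Msn differed between Msr1 and Lpl. Msr1 +733, like Cd36 +726, was edited in only 3 cells. Pearson's r, in the same order, was 0.56, 0.54 and 0.53 for Cd36 +726. It was 0.26, 0.28 and 0.12 for Msr1 +733, and 0.39, 0.58 and 0.11 for Lpl +2146.

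Other genes of lipid handling were looked up in both lists. Of 107 such genes searched for, 8 had a bulk site and 4 a single-cell site, and 9 had either. Among 27 scavenger and lipoprotein receptors these were Cd36 and Msr1, with 5 bulk and 8 single-cell sites. Among 20 lipases and lipoprotein remodelling genes, Pla2g7, the lipoprotein-bound phospholipase that hydrolyses platelet-activating factor, joined Lpl with a rate of 11.8% of 51 reads (4.44% to 23.9%). Of 15 genes of fatty acid uptake and activation, Acsl4, an acyl-CoA synthetase, had 14.3% of 21 reads (3.05% to 36.3%), and Cpt1a, which passes fatty acids into mitochondria, had 13.8% of 29 reads (3.89% to 31.7%). Of 25 genes of cholesterol handling, the lysosomal cholesterol carrier Npc2 had 10.8% of 37 reads (3.03% to 25.4%) and Soat1, which esterifies cholesterol, 10.3% of 29 reads (2.19% to 27.4%). Sqle, squalene epoxidase of sterol synthesis, had a single-cell site alone, edited in 4 of 12 covered cells with a mean of 8.68% ± 14.1 (SD). The 11 genes of lipid droplets and the 9 nuclear receptors searched for had none. The share of all expressed genes that were listed is not known from these files, so these counts have no background to be read against. An unlisted gene may have been unedited or too thinly covered, and coverage of unlisted positions was not analysed here.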

How the data were processed

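Libraries were made from polyadenylated RNA of 1 bulk wild-type and 1 bulk Apobec1 -/- macrophage culture and of 24 single wild-type macrophages, and read as single ends of 100 nt. Per the submitters' notes and the study's methods, the authors used Trim Galore 0.2.5 for trimming, TopHat2 with Bowtie for alignment to mm10 and Picard to drop duplicates. They compared base counts between genotypes and kept positions by magnitude (at least 15), angle (at least 0.11 radians from knockout to wild-type base counts), at least 5 reads and 2 edited reads, and dropped known variants, repeats and positions at splice junctions. For each bulk site the authors deposited a read count and an editing rate, the fraction of these reads with the edited base. For each single-cell site they deposited 1 such fraction per cell, and the fraction of cells with editing. Edited bulk reads were computed as reads times rate, whole within 0.001 at all 410 sites; 7 of them, no member among them, had 1 edited read.

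Positions were matched to GRCm38 (RefSeq sequence, GENCODE vM21), where the reference base was C on the gene's strand at all 17 members. Bulk rates have exact Clopper-Pearson 95% intervals. Neighbouring bulk sites were compared by Fisher's exact test over all 135 pairs with Benjamini-Hochberg adjustment, called at 0.05. Cells were summarised over covered cells, with no test, because the list gives no reads per cell. Procedures were tested on simulated data. Python 3.11.15, NumPy 2.4.6, SciPy 1.17.1, pandas 2.3.3, pysam and matplotlib 3.10.9 were used.

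All member sites are named. Of the lipid list, up to 4 genes per role are named by bulk rate and then by mean single-cell rate. Likeness used sites sharing at least 20 covered cells (15 for Msr1) and edited in at least 5 cells. Members and lists were chosen with earlier results of these data known. Alternatives varied the interval, depth, edited reads, position match, pairs, test, uncovered cells, each cell column left out, edited cells, correlation and mooring element. Groups were taken from the sample labels.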

Additional observations from a re-analysis of the deposited data

How the results depend on the processing

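With at least 30 reads 5 of the 8 bulk member sites were left, against 209 of 410 over the whole list. With at least 5 edited reads 4 were left, against 166 of 410. With pairs of neighbours within 100 nt left out, 0 of 3 member pairs differed by Fisher's test, because the pair that had differed is 50 nt apart; over that setting 2 pairs of the whole list were called. Demanding 4 edited cells left 5 of the 10 single-cell member sites, against 135 of 171 over the whole list. Demanding 5 edited cells left 2 (Cd36 +263 and Lpl +2146), against 107 of 171. The mooring element was matched at 7 of 17 positions (41.2%) with 5 bases, against 231 of 526 listed positions (43.9%). With 7 bases it was matched at 0, against 21 of 526 (3.99%). With the degenerate consensus it was matched at 1, against 13 of 526 (2.47%). Leaving out each of the 24 cell columns in turn moved the median over member sites of the mean rate between 5.49% and 7.22%, around 6.83%. It was 5.15% with uncovered cells at 0, 3.15% without each site's highest cell, and 0 with medians, which were 0 at 9 of 10 sites. Wilson intervals, 20 reads, 30 reads for the pairs and the overlap, 3 edited reads, a match within 2 nt, the chi-square test, Pearson's r, the share of covered cells and the base 5′ of sites with at least 30 reads kept counts within 1.5 times or values within their spread. No paired analysis was possible because the lists hold values of 1 bulk wild-type library and none of the knockout library, and the cell columns carry no numbers that tie them to a bulk library. The unknown reads per cell limit every single-cell rate, and 18 to 98 reads limit the bulk rates.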
